A study of Mus musculus with 419 samples.

Results

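The 37 genes of the mitochondrial genome were taken as every gene of the deposited count table whose symbol starts with mt-, out of 55487 genes in all. They comprised 13 protein genes, 2 rRNA genes and 22 tRNA genes, all placed on the mitochondrial chromosome of GRCm38. The rule used names and no measured value. Each gene was followed over 19 tissues, by treatment, collection time and animal.

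Mitochondrial DNA is transcribed from both strands into long precursors by the polymerase Polrmt with the factor Tfam. The precursors are cut at tRNAs that lie between most of the protein and rRNA genes. Most of the mRNAs, but not that of mt-Nd6, are then given short poly(A) tails and stabilised by the Lrpprc and Slirp complex. The protein genes encode subunits of respiratory complexes I (Nd genes), III (Cytb), IV (Co genes) and V (Atp genes), while the other subunits are nuclear. The rRNAs and tRNAs of mitochondrial translation are encoded there too, and its proteins, such as polymerases, ribosomal proteins and factors, are nuclear. Tissues with high oxidative demand, such as heart and brown fat, are known for a high content of mitochondrial RNA.

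RNA of CBA/CaJ mice was measured by bulk sequencing after poly(A) selection in 419 libraries from 36 animals. The mice modelled relative energy deficiency in sport and were either energy-sufficient (Control) or energy-deficient (Deficient), and the labels do not say how the deficiency was produced. No allele or other agent is named for any group, and no age. Tissues were collected at zeitgeber time 5 h (ZT05) or 17 h (ZT17). Each of 140 groups of tissue, sex, treatment and time held 3 libraries from separate animals, except 1 group with 2, so a comparison of treatments within a sex and tissue set 6 Deficient against 6 Control libraries. The exception was the Control tendon of the tibialis anterior in males at ZT05. Each animal had 1 treatment and 1 time and gave several tissues. Tissues of a sex therefore often share animals, and counts over tissues are not counts of independent comparisons.

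Column names give the number of each animal. The first cohort here means numbers 31 to 62 (12 mice of each sex), and the second means numbers 73 to 94 (12 further males). Male libraries came from both cohorts in 5 tissues, from the first alone in 5 and from the second alone in 7, so that in those last tissues sex and cohort cannot be told apart. Library totals ran from 5777450 to 53598697 counts, with a median of 17426150. Markers of pituitary (Gh), heart, lung, brown adipose tissue (Ucp1), liver (Alb), adrenal gland, kidney, spleen, uterus and testis were highest in the tissue of that label. Among limb muscles and tendons, soleus led Myh7 and Acta1, gastrocnemius Ckm and the EDL (extensor digitorum longus) tendon Tnmd and Fmod, and the other muscles and tendons led no marker checked. Per 1000000 counts of genes other than the members, the ovary libraries held medians of only 0.945 for Zp3 and 0.197 for Amh. These oocyte and granulosa markers were thus close to absent there. The tendon libraries also carried muscle transcripts: in Control females the 10 skeletal muscle markers summed to 58178 to 243168 CPM in the tendon of the tibialis anterior, led by Myh4. CPM are counts per 1000000 counts of the library, for these markers with library sizes scaled by TMM.

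Several members cannot be counted apart from another gene, and their sequences show why. A stretch of chromosome 1, chr1:24611535-24616197 in GRCm38 (minus strand, 4663 bases), carries 7 annotated unprocessed pseudogenes that are near-identical copies of members, set here as a difference in at most 0.5% of the aligned bases. Gm28661 copies mt-Co2, Gm10925 copies mt-Atp6, Gm28437 copies mt-Co3, Gm28438 copies mt-Nd3 and Gm10222 copies mt-Nd4l, all over nearly the whole gene. Gm28439 covers 63.6% of mt-Nd4 and Gm29216 covers 31.3% of mt-Co1. The gap of 233 bases between Gm10925 and Gm28661 corresponds to the 230 bases between mt-Co2 and mt-Atp6, which hold most of mt-Atp8. mt-Nd1, mt-Nd2, mt-Nd5, mt-Nd6, mt-Cytb and both rRNA genes lie outside the copied stretch. Where a copy differs, it differs by single bases, shown here in capitals with their surroundings (GENCODE M21 transcripts, GRCm38, positions counted from 1 at the 5′ end of the member). The copy of mt-Nd3 carries T3C, at chrM:9459-9481 and chr1:24613097-24613119 (minus strand):
mt-Nd3: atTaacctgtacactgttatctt
Gm28438: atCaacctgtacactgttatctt
The copy of mt-Co1 carries A1066T, at chrM:6390-6413 and chr1:24616165-24616188 (minus strand):
mt-Co1: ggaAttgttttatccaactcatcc
Gm29216: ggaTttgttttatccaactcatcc

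Members also overlap one another on the same strand, so a read over the shared bases belongs to both. mt-Atp8 (chrM:7766-7969) shares its last 43 bases with mt-Atp6, in capitals:
mt-Atp8: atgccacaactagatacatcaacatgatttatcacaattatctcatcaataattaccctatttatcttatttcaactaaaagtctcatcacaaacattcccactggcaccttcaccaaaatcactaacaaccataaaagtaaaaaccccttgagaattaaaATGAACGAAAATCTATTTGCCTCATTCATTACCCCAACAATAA
mt-Nd4l and mt-Nd4 share 7 bases, in capitals within chrM:10144-10196:
junction of mt-Nd4l and mt-Nd4: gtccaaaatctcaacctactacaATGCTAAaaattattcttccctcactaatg
The tRNA genes that moved in the most female tissues, mt-Tt for threonine (chrM:15289-15355) and mt-Tw for tryptophan (chrM:4950-5016), are printed because results below turn on them. mt-Tt starts at the base after the end of mt-Cytb, and mt-Tw starts within the last bases of mt-Nd2:
mt-Tt: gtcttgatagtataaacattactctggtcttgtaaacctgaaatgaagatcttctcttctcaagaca
mt-Tw: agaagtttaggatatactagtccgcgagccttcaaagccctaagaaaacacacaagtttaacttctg

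Of the counts given to the 37 members, mt-Co1 took 37.9% as the median over the 419 libraries, mt-Cytb 20.1%, mt-Nd1 12.8%, mt-Nd2 9.53%, mt-Nd5 8.63% and mt-Nd4 7.85%. These 6 genes of the heavy-strand transcript held nearly all counts. mt-Nd6, the only protein gene of the opposite strand, took 0.0603%, and how fully poly(A) selection captured it was not tested. The rRNA genes mt-Rnr1 (12S) and mt-Rnr2 (16S) took 0.728% and 0.964%, in libraries made from poly(A) RNA. The 6 protein genes that lie whole inside the copied stretch took 0.0185% together. Per kilobase of gene, the median level was 32165 CPM for mt-Co1, 22511 for mt-Cytb and 16532 for mt-Nd1, against 17.005 for mt-Co2, 13.9 for mt-Co3 and 10.2 for mt-Atp6. mt-Co2 and mt-Co3 encode subunits of the same complex as mt-Co1. On the same per-length scale mt-Nd6 stood at 134, mt-Rnr1 at 798 and mt-Rnr2 at 666.

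**Figure D1:**
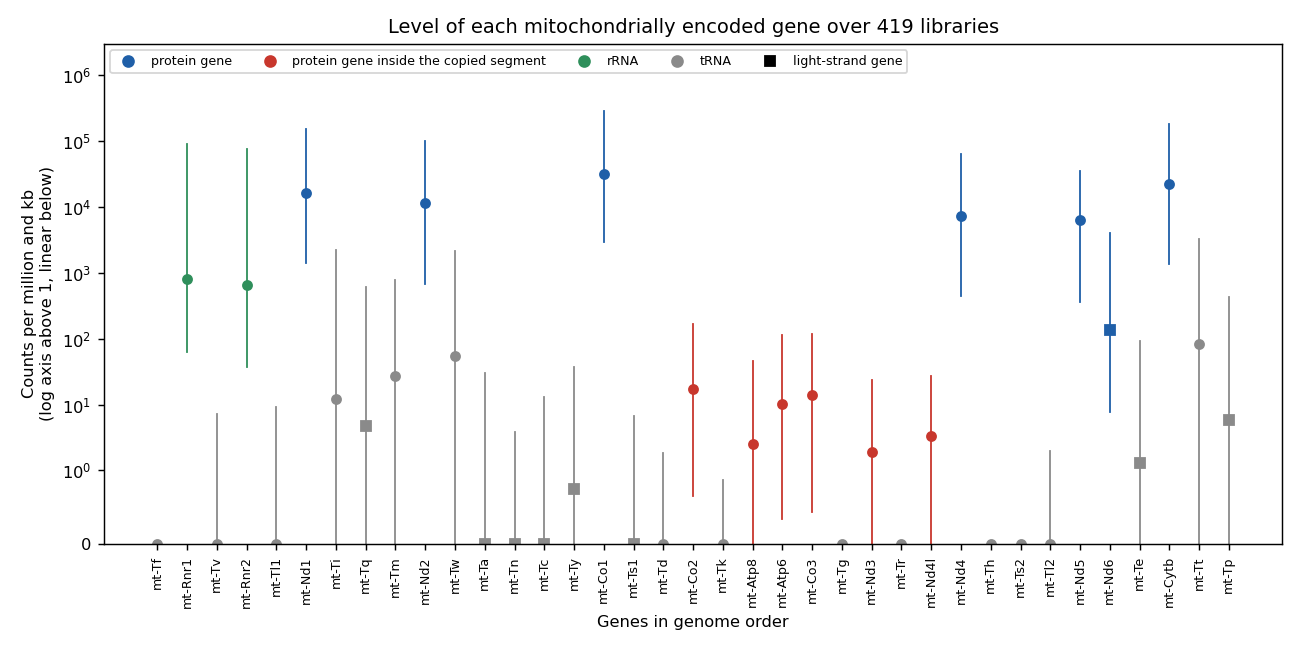
Level of each of the 37 genes in CPM per kilobase of gene (log axis above 1 and linear below), as the median over 419 libraries with a line from the lowest to the highest library, in genome order, with light-strand genes as squares. The 6 protein genes lying whole in the stretch copied on chromosome 1 sit at 17.005 or less, while mt-Co1 sits at 32165.

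The copies themselves were not empty. Their median counts per library were 625 for Gm28661, 566 for Gm10925, 510 for Gm28437, 490 for Gm29216, 248 for Gm28438, 220 for Gm28439 and 42 for Gm10222, against 216 for mt-Co2, 125 for mt-Atp6 and 187 for mt-Co3. How reads that fit both places were counted is not given in the sources used here. The levels of mt-Co2, mt-Co3, mt-Atp6, mt-Atp8, mt-Nd3 and mt-Nd4l are therefore uncertain, and those of mt-Nd4 and mt-Co1 in part. Of the 22 tRNA genes, 14 had a median count of 0 and 5 had 0 in all 419 libraries. The highest medians were 91 counts for mt-Tt, 66 for mt-Tw, 36 for mt-Tm, 17 for mt-Ti, 7 for mt-Tp and 6 for mt-Tq. In libraries made from poly(A) RNA, counts at a tRNA gene cannot tell the cut tRNA from uncut precursor. Rises and falls of tRNA genes below are therefore of these counts and not of tRNA levels.

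The copied genes divided the libraries by cohort and, within females, by the names of their columns. Counts of mt-Co2 per 100000 counts of mt-Co1 had a median of 99.2 (54.0 to 204) in the 93 second-cohort male libraries and of 13.2 (6.35 to 31.0) in the 110 first-cohort male libraries. In females the median was 21.8 (13.99 to 30.1) in the 72 libraries whose column names end in L003 and 9.92 (4.14 to 30.6) in the other 144. The second-cohort range lay wholly above the others. Over the same 4 sets, in that order, mt-Co3 per 100000 mt-Co1 stood at 51.4, 12.9, 23.2 and 11.5, and mt-Atp6 at 24.7, 9.66, 16.8 and 9.35. mt-Cytb, which has no copy there, stood at 54044, 58161, 52252 and 52169 per 100000 mt-Co1 and did not follow this order. The gap was also present within tissues sampled from both cohorts: in gastrocnemius the mt-Co2 ratio was 11.3 (n = 9) in the first and 87.9 (n = 3) in the second cohort, and in quadriceps 15.5 against 89.2. The 72 female libraries were the kidney, EDL, its tendon, tibialis anterior (TA), its tendon and soleus, 12 each. Levels of the copied genes were therefore not compared directly between cohorts or between these tissues and others. The male fits below, however, held both cohorts in the 5 tissues sampled from both, with no cohort term.

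**Figure D2:**
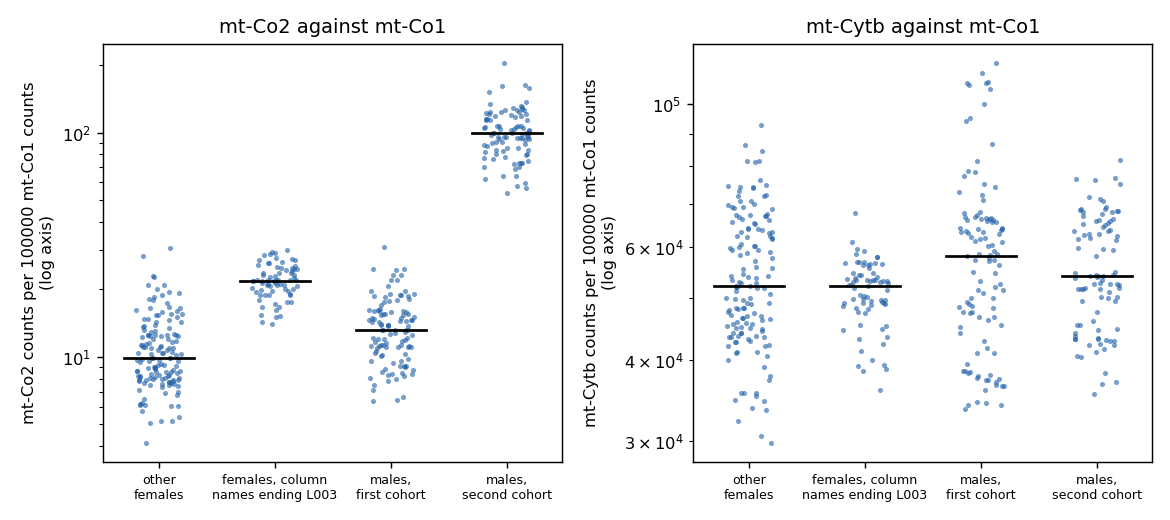
Counts of mt-Co2 (a gene with a near-identical nuclear copy) and of mt-Cytb (no such copy) per 100000 counts of mt-Co1 on log axes, 1 point per library with the median as a line, by sex, cohort and column name. The 93 second-cohort male libraries lie between 54.0 and 204 for mt-Co2, above every other library, and overlap the others for mt-Cytb.

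The summed share of the members in each library's counts ordered the tissues, and is given as a description with no test. In Control females (6 libraries a tissue) it was highest in brown adipose tissue, with a median of 27.5% (24.4 to 32.0), and in heart, with 27.2% (25.1 to 31.0), and these 2 tissues overlapped each other and no other. The fast muscles followed, EDL with 17.3% (15.5 to 19.6) and TA with 16.999% (15.5 to 19.4). The slow soleus stood at 14.6% (13.6 to 14.8), gastrocnemius at 12.5% and quadriceps at 12.04%, in an overlapping run with the 3 tendons. Kidney (10.4%), adrenal gland (8.24%) and liver (5.41%) came next, each apart from its lower neighbour. Spleen (3.05%), ovary (2.78%), lung (2.57%), uterus (2.20%) and pituitary (1.92%) were lowest and overlapped. Kidney, EDL, TA, soleus and the tendons of EDL and TA are the tissues with column names ending in L003. The part of that library set in the order was not tested.

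The male order could not be read the same way. First-cohort male libraries held a median of 44.8% (0.973 to 94.2) over their tissues, second-cohort male libraries 11.3% (2.63 to 27.6) and female libraries 11.3% (1.68 to 32.0). In the 5 tissues with both cohorts, all 10 second-cohort libraries lay between 2.63% and 27.6%, with brown adipose tissue at 27.6% and spleen at 2.63%, close to the Control female medians of 27.5% and 3.05%. Of the tissues sampled from the second cohort alone, Control males had medians of 18.7% (TA), 15.2% (soleus), 14.6% (EDL), 10.99% (kidney) and 6.47% (adrenal gland). Heart, sampled from the first cohort alone, had 71.5% (70.0 to 76.9) and lung 44.6% (40.1 to 64.9). Pituitary and testis, also from the first cohort alone, had lower shares, 3.27% (2.43 to 9.69) and 1.31%. The pituitary median was still above the 1.92% of Control females, and testis had no female or second-cohort libraries to compare. First-cohort male libraries also held more rRNA among the member counts (median 3.63%, against 1.52% in females and 1.16% in the second cohort), more of the rRNA-like nuclear pair CT010467.1 and Lars2 among the other counts (2.79%, against 0.141% and 0.122%), and fewer counts in all (median 11097800, against 20609500 and 16394300). The part of these in the share was not tested.

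**Figure D3:**
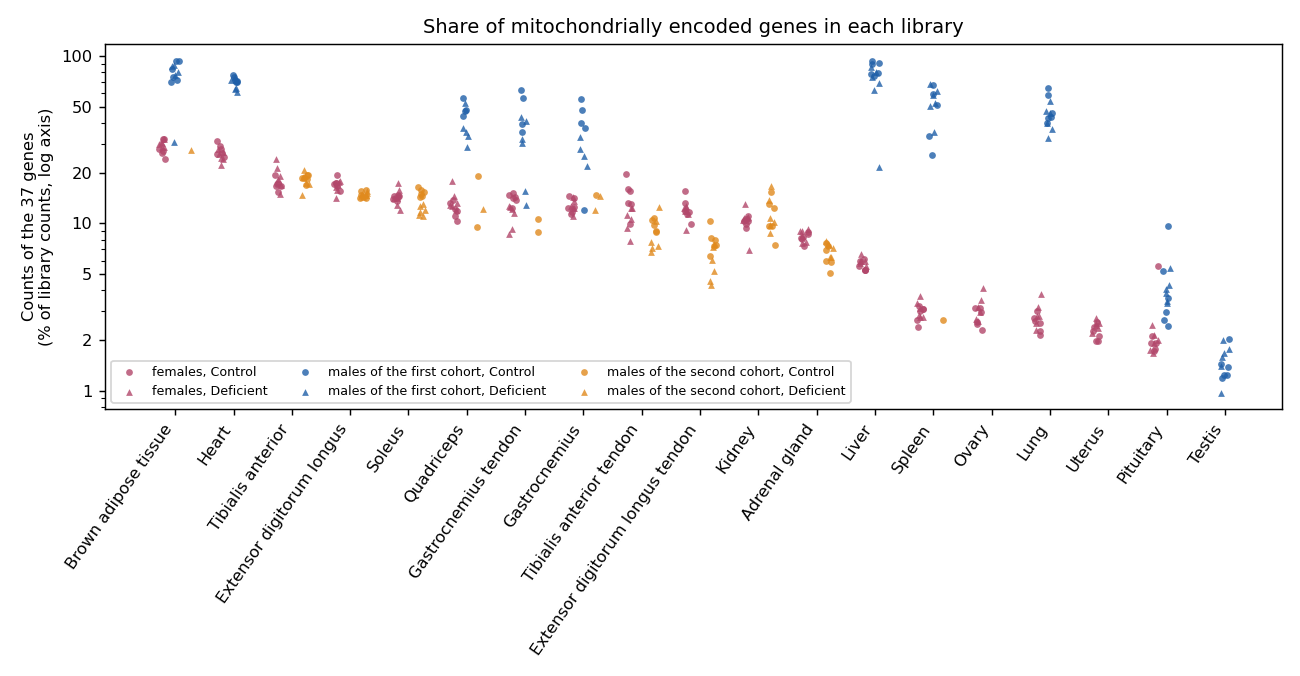
Summed share of the 37 members in each library's counts (percent, log axis), 1 point per library, by tissue, for Control (circles) and Deficient (triangles) females, first-cohort males and second-cohort males. Control female medians run from 1.92% in pituitary to 27.5% in brown adipose tissue, and first-cohort males lie above them in most tissues.

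Within the members, tissues differed in which genes held the counts. In Control females mt-Co1 took 46.5% (44.4 to 48.6) of the member counts in liver, against 34.2% (33.3 to 35.3) in lung, with no overlap. mt-Nd5, a complex I subunit whose gene lies far from the promoter, was lowest in brown adipose tissue at 4.52% (2.78 to 6.07) and adrenal gland at 5.24% (3.44 to 5.83), and highest in pituitary at 11.4% (6.87 to 12.9). mt-Nd6 ran from 0.0343% in the EDL tendon to 0.226% (0.137 to 0.259) in liver, 0.170% in adrenal gland and 0.161% in brown adipose tissue. mt-Cytb was lowest in heart at 16.7% (13.97 to 17.9) and highest in pituitary at 24.5% (18.5 to 25.04) and brown adipose tissue at 24.1% (22.8 to 25.03). The rRNA genes were highest in spleen at 11.5%, with a wide range of 2.27 to 25.6, and lowest in kidney at 0.823% (0.576 to 1.33). Female EDL tendon and kidney libraries have column names ending in L003, and the part of that library set was not tested.

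A few libraries stood apart by their rRNA. mt-Rnr1 and mt-Rnr2 made up 88.5% of the member counts in the gastrocnemius of male animal 49 (Control), 68.6% in the brown adipose tissue of male animal 45 (Deficient) and 41.9% in the gastrocnemius of female animal 44 (Deficient). Control female spleens held 25.6%, 24.3% and 18.8% in animals 56, 47 and 31. In male animal 53 (Deficient) liver held 23.1% and quadriceps 22.1%, and the pituitary of male animal 50 (Control) held 19.2%. Their rRNA-like nuclear pair was high as well, from 5.77% to 92.9% of the non-member counts in these 9 libraries.

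To ask how energy deficiency moved each gene, all genes of a tissue were fitted in each sex alone, and a gene is called where its adjusted p is under 0.05. Values are log2 differences of Deficient minus Control averaged over both times, and levels are CPM on TMM-scaled library sizes. In bulk tissue, fewer cells of a type and less RNA per cell cannot be told apart. Over 324 female pairs of member and tissue, 19 rose and 10 fell, 5.86% and 3.09%, beside 6.79% and 7.42% of all gene and tissue pairs. Over 325 male pairs, 1 rose and 29 fell, 0.308% and 8.92%, beside 2.3% and 2.45% of all pairs. The median difference over member pairs was 0.02 in females and -0.27 in males, while the median of all genes of a tissue lay between -0.04 and 0.07. By role, in females 11 of 77 tRNA pairs rose and 4 fell, 7 of 108 pairs of heavy-strand protein genes outside the whole-copied group and 1 of 85 pairs of whole-copied genes rose, and 4 of 36 rRNA pairs and 2 of 18 mt-Nd6 pairs fell. In males 10 of 90 pairs of whole-copied genes, 8 of 82 tRNA pairs, 6 of 102 of the other heavy-strand protein genes, 3 of 34 rRNA pairs and 2 of 17 mt-Nd6 pairs fell, and 1 tRNA pair rose. The female minus male response passed the test in 7 of 338 pairs, all in liver and all positive, beside 0.632% of all pairs.

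Male soleus held the most member falls of any tissue, and was the only one whose summed share did not overlap between treatments. The share was 14.3 to 16.5% with a median of 15.2% in the 6 Control libraries and 11.1 to 13.1% with a median of 11.9% in the 6 Deficient ones, lower at both times. mt-Co1 stood at 59928, 64774 and 71794 CPM (lowest, median and highest) in Control and at 45602, 51346 and 54939 in Deficient libraries. mt-Nd1 stood at 15462, 18504 and 20039 against 11833, 13009 and 14295, and mt-Nd2 at 13203, 14340 and 16364 against 9657, 10733 and 11869. For these 3 genes every Deficient library lay below every Control one, and how many of all genes in this tissue did so was not counted. mt-Cytb did the same, at 25836, 27640 and 31663 against 19517, 22006 and 24482.

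Of 19 members tested in male soleus 12 fell and 0 rose, beside 6.43% of all genes of that tissue falling. By edgeR's quasi-likelihood test with Benjamini-Hochberg adjustment, mt-Co2 fell by 0.41 ± 0.06 (SE; adjusted p = 0.0026), mt-Nd1 by 0.46 ± 0.08 (0.0053), mt-Nd2 by 0.46 ± 0.09 (0.0056), mt-Nd5 by 0.43 ± 0.08 (0.0059), mt-Cytb by 0.37 ± 0.09 (0.020) and mt-Co1 by 0.36 ± 0.09 (0.024). mt-Co3 and mt-Nd4 fell by 0.43 and 0.34. Of these, mt-Co2 and mt-Co3 are whole-copied genes of uncertain level. Of the tRNAs mt-Ti, mt-Tm and mt-Tw fell by 1.55, 0.90 and 0.65. mt-Rnr2 fell by 0.36, with overlapping libraries, a call kept in 1 of 12 fits with a library left out. mt-Rnr1 (-0.33), mt-Nd6 (-0.48) and mt-Tt (-0.40) did not pass the test, and for mt-Nd6 the libraries overlapped, at 41.8, 45.6 and 60.9 CPM against 21.4, 31.1 and 60.2. The count of 12 became 7 without Control ZT05 replicate 1 and 7 without Control ZT17 replicate 2, and mt-Co2, mt-Co3, mt-Nd1, mt-Nd2, mt-Nd5, mt-Ti and mt-Tm were called whichever of the 12 libraries was left out. When scaled to the sum of the members instead of the library, only mt-Ti (-1.17) and mt-Tm (-0.52) were still called. The protein genes and mt-Rnr2 then lay near 0, from -0.07 for mt-Nd2 and mt-Nd1 to 0.05 for mt-Nd4. That scaling takes out any change shared by the members.

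In female soleus the summed share overlapped between treatments (medians 14.6% and 14.2%). mt-Co1 stood at 55818, 61415 and 67819 CPM in Control and 49655, 63300 and 81169 in Deficient libraries, a difference of 0.04 ± 0.13 (adjusted p = 0.88 by edgeR's quasi-likelihood test with Benjamini-Hochberg adjustment). The female minus male difference was 0.43 ± 0.15 for mt-Co1, 0.57 ± 0.19 for mt-Nd1 and 0.65 ± 0.17 for mt-Nd2, and none was called (adjusted p = 0.27, 0.24 and 0.15 in the same test). The male soleus libraries were all of the second cohort, so sex and cohort cannot be told apart in this difference.

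Nuclear genes of mitochondrial RNA metabolism also fell in male soleus. Tfam, which packages mitochondrial DNA and starts transcription, stood at 36.5, 39.1 and 45.8 CPM in Control and 32.6, 33.4 and 36.8 in Deficient libraries, a fall by 0.24 ± 0.06 with slight overlap. Lrpprc, which stabilises mitochondrial mRNAs, fell by 0.35 ± 0.08, from a median of 155 CPM to 124. Mtpap, the mitochondrial poly(A) polymerase, fell by 0.22 ± 0.06, from a median of 21.5 CPM to 17.8. Of the lists of nuclear genes, 4 of 11 genes of mitochondrial transcription, 5 of 22 of RNA processing and decay, 6 of 14 of translation and 2 of 8 biogenesis regulators fell, 0 rose, and 0 of 13 replication genes changed. Of all genes in this tissue 6.43% fell and 5.48% rose. Ppargc1a, the coactivator of mitochondrial biogenesis, differed by 0.05 ± 0.22. Tendon markers moved with these values: 5 of 7 fell and their sum was 1037 to 1589 CPM in Control and 446 to 995 in Deficient libraries. The 10 muscle markers summed to 57536 to 72654 and 52642 to 77680 CPM. The part of tendon cells in the result was not tested.

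**Figure D4:**
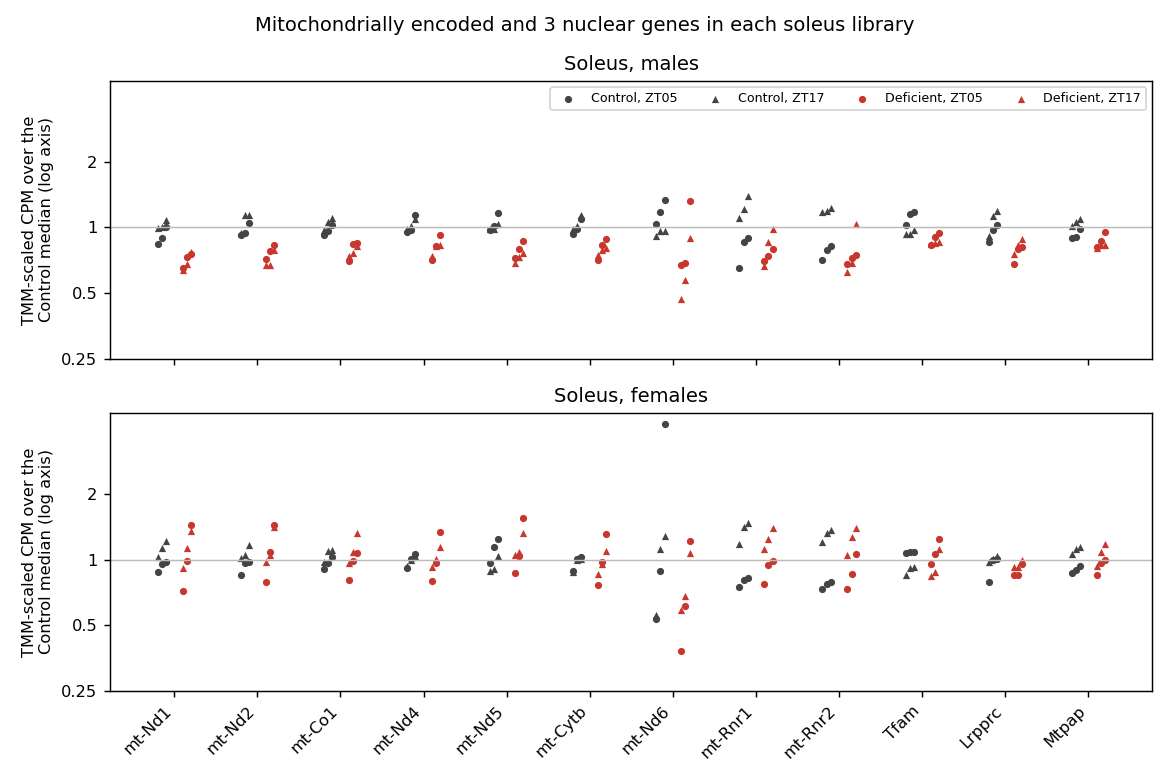
Levels in soleus of 9 members and of Tfam, Lrpprc and Mtpap, as TMM-scaled CPM divided by the median of the Control libraries of that sex (log axis), 1 point per library, males above and females below. In males each Deficient library lies below each Control library for mt-Co1, mt-Nd1, mt-Nd2 and mt-Cytb, and in females the treatments overlap.

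In females the member whose counts rose in the most tissues was mt-Tt, the tRNA gene next to mt-Cytb whose sequence is given above. Whether these counts came from the cut tRNA or from uncut precursor was not tested. In EDL it stood at 4.90, 5.70 and 7.85 CPM (lowest, median and highest) in Control and 7.99, 9.02 and 10.3 in Deficient libraries. In heart it stood at 4.80, 5.54 and 6.34 against 6.81, 7.81 and 9.57, and in liver at 1.10, 2.08 and 2.33 against 2.95, 3.32 and 3.86. In these 3 tissues every Deficient library lay above every Control library. The share of all genes with such a separation was not counted. In brown adipose tissue (12.4, 14.2 and 21.98 against 14.9, 23.7 and 40.9), gastrocnemius (2.99, 5.71 and 8.82 against 7.84, 11.2 and 14.04) and TA (8.14, 9.60 and 11.3 against 9.79, 17.3 and 18.2) the medians rose with overlap.

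mt-Tt was called in 6 of the 14 female tissues where it was tested, 42.9%, beside 6.79% of all female pairs, and its difference was positive in 13. By edgeR's quasi-likelihood test with Benjamini-Hochberg adjustment it rose by 0.80 ± 0.16 in liver (adjusted p = 0.0052), 0.72 ± 0.14 in TA (0.0016), 0.68 ± 0.15 in brown adipose tissue (0.016), 0.58 ± 0.12 in EDL (0.0033), 0.53 ± 0.11 in heart (0.0078) and 0.96 ± 0.28 in gastrocnemius (0.044). The calls in 5 of these tissues held whichever library was left out, and the call in gastrocnemius in only 3 of 12 such fits. All 6 also held with library totals alone and with the sum of the members as the library size. mt-Cytb, directly upstream, was not called in 5 of the 6 tissues, with differences from -0.19 in gastrocnemius to 0.11 in brown adipose tissue, and rose by 0.26 in TA. In males mt-Tt was positive in 3 of 16 tissues and called in 0, with 3 falls at an unadjusted p under 0.05. The female minus male difference for mt-Tt was positive in 13 of 16 tissues and called in liver alone (1.75 ± 0.39), with 0.90 ± 0.18 in EDL missing the threshold (adjusted p = 0.082 in the same test). Erythroid transcripts, led by Hbb-bs, were lower in Deficient females in these tissues: in liver their sum was 62.9 to 204 CPM in Control and 10.7 to 28.9 in Deficient libraries, and in EDL 53.7 to 108 and 7.49 to 49.1. Their part in the mt-Tt values was not tested.

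mt-Tw, which follows mt-Nd2, rose in 4 of 15 female tissues, beside 6.79% of all female pairs rising, and was positive in 12. It rose by 0.71 ± 0.16 in quadriceps, from 1.83, 2.16 and 3.90 CPM in Control to 3.26, 4.01 and 5.89 in Deficient libraries, which overlapped. In TA it rose by 0.93 ± 0.14, from 4.91, 5.51 and 6.98 CPM to 7.81, 9.96 and 16.5, with no overlap. The rises in EDL (0.40) and gastrocnemius (0.80) were kept in only 6 and 2 of 12 fits with a library left out. In males mt-Tw rose in kidney (2.99, between 1.79 and 3.95 with a library left out and kept in 8 of 12 fits) and fell in soleus (-0.65, kept in 2). mt-Nd5, the long complex I gene that lies before mt-Cytb on the heavy-strand transcript, rose in 3 of 18 female tissues, beside the same 6.79%, and was positive in 14. In brown adipose tissue mt-Nd5 stood at 7356, 12969 and 14644 CPM in Control and 14744, 19036 and 24880 in Deficient libraries, a rise by 0.73 ± 0.14 with no overlap. In liver it rose by 0.34 ± 0.10, with overlap, and the call was kept in 4 of 12 fits with a library left out.

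Female TA held the most rises of members, 8 of 21 tested, beside 16.1% of all genes of that tissue rising. mt-Tw, mt-Tt, mt-Tp (1.05 ± 0.29) and mt-Nd5 (0.43 ± 0.08) were called whichever library was left out. mt-Nd5 stood at 14832, 15326 and 16806 CPM in Control and 15867, 21054 and 27337 in Deficient libraries, with overlap. mt-Cytb (0.26), mt-Nd4 (0.25), mt-Co1 (0.24) and mt-Nd2 (0.21) were called in 6, 4, 3 and 3 of the 12 such fits and in none on library totals alone. The count of 8 became 4 without Control ZT05 replicate 1 or 3, Control ZT17 replicate 2 or 3, Deficient ZT05 replicate 1 or Deficient ZT17 replicate 3, and 5 without Deficient ZT17 replicate 1. mt-Co1 stood at 57520, 62977 and 71638 CPM against 63839, 70327 and 95259. In the same tissue CT010467.1 rose by 3.36, 6 of 7 tendon markers fell (sum 87.6 to 213 CPM in Control and 30.8 to 50.6 in Deficient libraries) and 4 of 4 erythroid markers tested fell. Their part was not tested.

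Members that fell in females were mostly of other kinds. mt-Nd6, the complex I subunit of the light strand, fell in EDL of both sexes. In females it stood at 56.5, 115 and 176 CPM in Control and 29.6, 68.3 and 77.6 in Deficient libraries, a fall by 0.91 ± 0.26, and in males at 45.9, 69.8 and 87.3 against 35.4, 43.7 and 48.2, a fall by 0.69 ± 0.13. Both overlapped between treatments, and 15.4% of all EDL genes fell in females and 6.13% in males. Both calls for mt-Nd6 held whichever library was left out. The part of poly(A) selection in the mt-Nd6 values was not tested. mt-Nd6 also fell in uterus (-0.63), a call kept in 4 of 12 such fits and not made on library totals (-0.38). Of all uterus genes 23.8% fell. mt-Tq, a light-strand tRNA with few counts, fell in female brown adipose tissue (-1.49), a call that held whichever library was left out, and in female EDL (-1.90) and male TA (-1.91), kept in 5 and 3 of 12 fits. mt-Tm was negative in 12 of 14 tissues in females and 15 of 15 in males, and fell in female heart (kept in 3 of 12 fits) and in male EDL (8), liver (12) and soleus (12). mt-Ti was negative in 10 of 12 female and 8 of 10 male tissues, called in female heart (kept in 7 of 12 fits) and in male heart (5), liver (12) and soleus (12). Both lie in the tRNA cluster between mt-Nd1 and mt-Nd2. Falls were called in 11.1% of female and 11.8% of male mt-Nd6 pairs, and in 20% and 10% of mt-Tq pairs. For mt-Tm they were 7.14% and 20%, and for mt-Ti 8.33% and 30%, beside 7.42% and 2.45% of all pairs.

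The rRNA genes fell in 3 female tissues. In heart mt-Rnr2 stood at 2475, 4542 and 14318 CPM in Control and 1918, 2410 and 4192 in Deficient libraries, a fall by 0.84 ± 0.19 with overlap, and mt-Rnr1 fell by 0.78. With mt-Ti (-0.84) and mt-Tm (-0.61) they were the 4 members falling there, beside 8.06% of all genes of female heart. The mt-Rnr2 call held whichever library was left out and the mt-Rnr1 call in 8 of 12 fits. CT010467.1 and Lars2 fell with them, by 2.55 and 2.35, and CT010467.1 stood at 428 to 27557 CPM in Control and 355 to 647 in Deficient libraries. In spleen mt-Rnr2 fell by 2.67, from 329, 2475 and 6936 CPM to 303, 516 and 641. The spleen call was kept in 3 of 12 fits with a library left out, and without libraries whose rRNA passed 20% of the member counts the difference was -1.22 (adjusted p = 0.19 by edgeR's quasi-likelihood test with Benjamini-Hochberg adjustment). mt-Atp8, with a median of 9 counts over all libraries, rose by 1.47 in the same spleens. With a library left out, its call there was kept in 3 of the 10 fits that tested it. All 6 erythroid markers tested fell there, with a sum of 1557 to 16744 CPM in Control and 171 to 726 in Deficient libraries, and their part was not tested. In liver mt-Rnr2 fell by 0.51, kept in 3 of 12 fits.

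Male liver, all from the first cohort, held 9 members that fell, beside 2.47% of all genes tested there. They were mt-Ti (-1.82), mt-Tm (-1.76), mt-Nd6 (-1.64), mt-Nd4l (-1.59), mt-Atp8 (-1.52), mt-Co2 (-1.30), mt-Co3 (-1.28), mt-Atp6 (-1.17) and mt-Nd3 (-1.01). The last 6 of these are the whole-copied genes, whose levels are uncertain because their reads can fit the copies on chromosome 1. The response of the copies is not given here. mt-Co2 stood at 29.9, 77.4 and 113 CPM in Control and 20.97, 26.8 and 33.4 in Deficient libraries, with slight overlap. mt-Co1 spread far more, at 215031, 640380 and 903982 against 138663, 217204 and 300932, and its difference of -1.30 ± 0.57 was not called (adjusted p = 0.21 by edgeR's quasi-likelihood test with Benjamini-Hochberg adjustment). On library totals without TMM scaling 0 of the 9 were called and the falls were smaller, with mt-Co2 at -0.41, mt-Co3 at -0.36, mt-Atp6 at -0.24, mt-Nd3 at -0.21, mt-Atp8 at -0.42, mt-Nd4l at -0.68, mt-Nd6 at -0.80, mt-Tm at -0.85 and mt-Ti at -1.20. All 4 erythroid markers tested fell in these livers, with a sum of 74.5 to 280 CPM in Control and 11.3 to 78.5 in Deficient libraries, and their part was not tested. The count of 9 became 6 without Control ZT05 replicate 2, Control ZT17 replicate 1 or Control ZT17 replicate 3, and 8 without Deficient ZT05 replicate 3, the library of animal 53. The female minus male response in liver was called for mt-Tt (1.75), mt-Tm (1.70), mt-Nd5 (1.62), mt-Nd2 (1.52), mt-Atp6 (1.44), mt-Co3 (1.33) and mt-Co2 (1.27), beside 0.313% of all genes, and for none of these on library totals. The other male calls were mt-Tm (-0.91) and mt-Rnr1 (-0.34) in EDL, mt-Atp6 (-0.84) and mt-Co2 (-0.66) in the EDL tendon, mt-Ti (-0.87) in heart and mt-Rnr1 (-0.49) in kidney. With a library left out they were kept in 8, 5, 2, 3, 5 and 6 of 12 fits, in that order.

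The summed share in the other tissues overlapped between treatments and is given as a description. Over all tissues it was lower in Deficient libraries, by medians, in 6 of 18 tissues in females and 12 of 17 in males, at both times in 4 and 5 of them. In the 5 male tissues of both cohorts, second-cohort libraries were split unevenly between treatments. Their shares were lower, in gastrocnemius with a mean of 13.8% against 33.3% in the first cohort. Gastrocnemius, its tendon, quadriceps and brown adipose tissue were among the 12, and the part of cohort there was not tested. The TA tendon was lower in both sexes, 14.4% against 10.9% in females and 9.78% against 7.54% in males. The gastrocnemius tendon of females stood at 14.3% and 11.9% and the EDL tendon of males at 7.73% and 5.64%. The treatments overlapped in each of these tendons.

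Time of day was compared as ZT17 minus ZT05. In Control females 16 of 324 pairs rose and 1 fell, beside 2.27% and 2.41% of all pairs, and 10 of the 16 were the rRNA genes, in heart and 4 limb muscles. mt-Rnr2 stood at 882, 1020 and 1163 CPM in the 3 ZT05 libraries of EDL and at 1543, 1879 and 2472 in the 3 of ZT17. In quadriceps it stood at 785, 1175 and 1236 against 1931, 2040 and 2274, and in soleus at 720, 760 and 777 against 1188, 1294 and 1336. In TA mt-Rnr2 stood at 1063, 1156 and 1253 against 1926, 1926 and 2588, and in heart at 2475, 2618 and 2848 against 6236, 6646 and 14318. In all 5 tissues every ZT17 library lay above every ZT05 library. With 3 libraries a side other genes can separate too, and their share was not counted. The same 3 animals of each time gave all 5 tissues, so the tissues do not repeat the comparison in separate animals.

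For mt-Rnr2 these were rises by 1.78 ± 0.27 in heart, 0.97 ± 0.16 in quadriceps, 0.94 ± 0.17 in EDL, 0.89 ± 0.15 in TA and 0.76 ± 0.15 in soleus, with adjusted p from 0.0032 to 0.011 by edgeR's quasi-likelihood test with Benjamini-Hochberg adjustment. mt-Rnr1 rose beside it by 1.33, 0.81, 0.86, 0.82 and 0.78. The share of all genes rising was 2.65% in heart, 2.23% in quadriceps, 3.32% in EDL, 3.65% in TA and 3.16% in soleus. The mt-Rnr2 calls held whichever library was left out, except in soleus, where 11 of 12 fits kept it. The mt-Rnr1 calls were kept in 8 to 12 of the 12 fits. CT010467.1 rose in heart (3.74 ± 0.99) and was not called in the muscles, at 0.38 in EDL, 0.24 in TA, 0.16 in soleus and -1.36 in quadriceps. Female gastrocnemius went without the pattern, with mt-Rnr2 at 565, 1271 and 6815 CPM at ZT05. Over all 18 female tissues mt-Rnr2 was positive in 14 and mt-Rnr1 in 13.

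In Deficient females 5 of 324 pairs rose and 2 fell with time, beside 1.29% and 1.2% of all pairs, and all 5 rises were rRNA genes. mt-Rnr2 stood at 825, 872 and 924 CPM in quadriceps at ZT05 and 1681, 1783 and 2075 at ZT17, in TA at 1190, 1401 and 1748 against 2088, 2392 and 2743, and in EDL at 847, 994 and 1039 against 1219, 1531 and 1667. mt-Rnr2 rose by 1.08 in quadriceps, 0.74 in TA and 0.62 in EDL, and mt-Rnr1 by 1.11 in quadriceps and 0.92 in TA. The share of all genes rising was 0.806% in quadriceps, 2.02% in TA and 3.26% in EDL. The EDL call was kept in 6 of 12 fits with a library left out, and those in TA in 9 each. In heart (1918, 2142 and 2194 against 2626, 3923 and 4192) and soleus (719, 844 and 1046 against 1035, 1242 and 1377) the libraries did not reach the threshold. Whether treatment altered the time difference was tested itself: in females edgeR called 0 of 324 pairs, with 8 above and 16 below 0 at an unadjusted p under 0.05, and DESeq2 called 2. The 2 falls were mt-Tt in brown adipose tissue (-0.94) and mt-Nd5 in TA (-0.46).

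**Figure D5:**
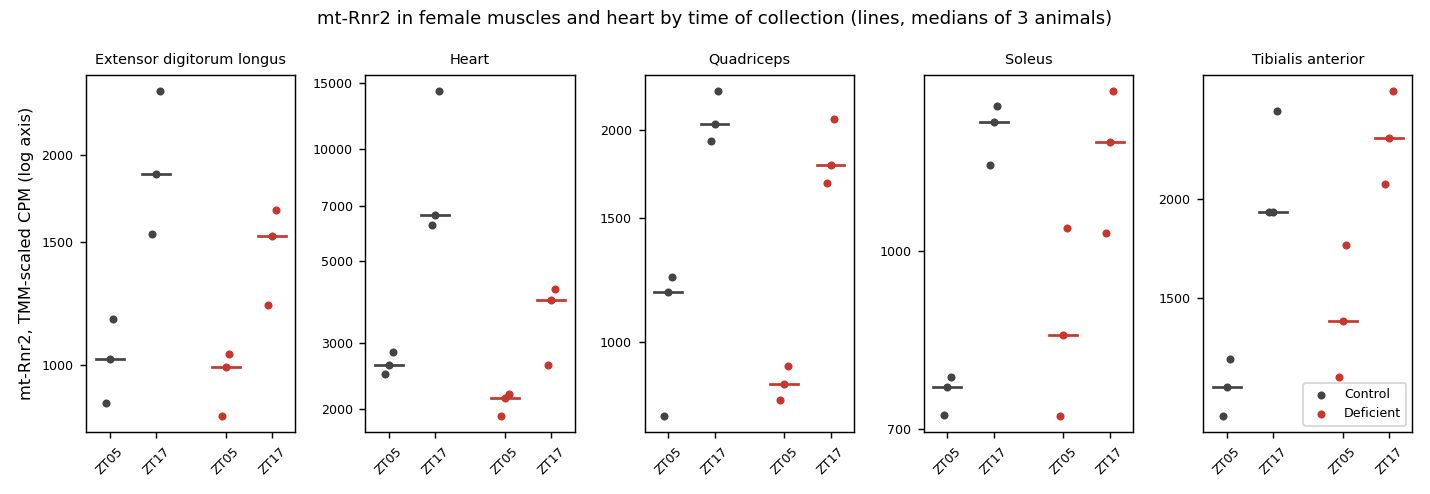
Level of mt-Rnr2 (CPM on TMM-scaled library sizes, log axis, 1 point per library, lines at the median of 3) at ZT05 and ZT17 in female heart and limb muscles, for Control and Deficient animals. In Control heart, EDL, quadriceps, soleus and TA the 3 ZT17 libraries lie above the 3 ZT05 libraries.

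In Control male soleus both rRNA genes were also higher at ZT17. mt-Rnr2 stood at 589, 656 and 683 CPM at ZT05 and 978, 985 and 1017 at ZT17, a rise by 0.63, and mt-Rnr1 rose by 0.63, beside 3.08% of all genes of that tissue rising. These calls were kept in 6 and 7 of 12 fits with a library left out. Without any 1 of the 6 Control libraries neither gene was called, except mt-Rnr1 without Control ZT17 replicate 3. The difference between the sexes in this time effect was not tested. In Deficient male soleus mt-Rnr2 stood at 567, 601 and 619 against 520, 573 and 862, with overlap.

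Among other members with time, mt-Nd5 was lower at ZT17 in 16 of 18 Control female tissues and fell in heart, from 26688 to 28111 CPM at ZT05 to 16804 to 19113 at ZT17 (-0.60 ± 0.15), a call kept in 5 of 12 fits with a library left out. mt-Ti rose in Control female brown adipose tissue (2.40), kidney (1.64) and heart (1.27), calls kept in 12, 7 and 5 of 12 such fits, and was positive in 11 of 12 tissues. mt-Tm rose in soleus (1.13, kept in 6). mt-Co1 and mt-Nd4 rose in Control female brown adipose tissue by 0.46 and 0.38, kept in 6 and 5.

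In Control males 12 of 325 pairs rose with time and 0 fell, beside 0.836% of all pairs rising. In Deficient males edgeR called 0 pairs, with 16 rises and 21 falls at an unadjusted p under 0.05, and DESeq2 called 3 rises and 6 falls. Apart from the rRNA genes of soleus, the 10 rises were in brown adipose tissue, beside 4.71% of all genes rising there. mt-Co2 stood at 22.2 to 32.1 CPM in the 3 Control libraries of ZT05 and 148 to 224 in those of ZT17, and mt-Co1 at 103688 to 169042 against 641826 to 721130. The called members were mt-Ti (4.78), mt-Tw (3.73), mt-Tt (3.68), mt-Co2 (2.75), mt-Co3 (2.73), mt-Nd4l (2.67), mt-Atp6 (2.64), mt-Nd3 (2.42), mt-Tm (2.29) and mt-Atp8 (2.06). On library totals only mt-Ti (2.80), mt-Tw (1.84) and mt-Tt (1.79) of these were called, with mt-Co2 at 0.80, mt-Co3 at 0.79, mt-Nd4l at 0.73, mt-Atp6 at 0.69, mt-Nd3 at 0.52, mt-Tm at 0.36 and mt-Atp8 at 0.12. The count became 3 without Control ZT05 replicate 1 or 2 or Control ZT17 replicate 1, and 5 without Control ZT17 replicate 3. The response at ZT17 was below that at ZT05 for 12 members in this tissue, beside 8.3% of its genes and 0.461% of all male pairs, with mt-Co2 at -3.80, mt-Ti at -8.00, mt-Rnr1 at -6.93 and mt-Rnr2 at -6.75. Only 2 of these 12 were called on library totals, and mt-Atp8 and mt-Nd4l then turned positive (0.13 and 0.40). The groups were uneven: 1 of the 3 Deficient ZT17 libraries was the only second-cohort one of the tissue, and 1 of the 3 Deficient ZT05 libraries was that of animal 45 with 68.6% rRNA. The second-cohort library held 103 mt-Co2 counts per 100000 of mt-Co1, against a first-cohort median of 19.0. The fit had no cohort term, and the whole-copied genes named here are of uncertain level. With a cohort term, 22 of 22 called pairs in the male tissues of both cohorts were called in the same direction.

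The nuclear machinery was followed by 5 lists of genes, 67 of whose 68 genes are in the table. In females 22 of 252 pairs of translation factors fell and 5 rose, and in males 20 of 235 fell and 1 rose. Of transcription genes 15 of 196 female pairs fell and 7 rose, and 10 of 177 male pairs fell and 2 rose. RNA processing and decay genes fell in 20 and rose in 16 of 396 female pairs. Replication genes rose in 15 of 234 female pairs and fell in 7. Biogenesis regulators rose in 13 of 141 female pairs and fell in 2. These shares stand beside 6.79% rising and 7.42% falling of all female pairs, and 2.3% and 2.45% of all male pairs.

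Of single nuclear genes, Ppargc1a rose in 6 of 18 female tissues: uterus (1.48), brown adipose tissue (1.18), ovary (1.02), liver (0.82), heart (0.70) and kidney (0.30), and in male kidney (0.66). Slirp, the partner of Lrpprc, fell in heart, spleen, uterus and EDL of females. Esrra, an orphan receptor that works with Ppargc1a, fell in uterus (-1.46) and TA (-0.37) of females and in 2 male tissues. Twnk, the mitochondrial DNA helicase, fell in gastrocnemius and its tendon in females, and Polrmt rose in EDL and the gastrocnemius tendon. Tfam and Mtpap were called in 0 female tissues and in soleus alone among male tissues. Ppargc1a rose in female ovary and kidney, where 0 members were called. Of the heavy-strand protein genes outside the whole-copied group, 6 were positive and 0 negative in ovary (median 0.23). In kidney 4 were positive and 2 negative (median 0.03). Whether these nuclear genes and the members moved together was not tested.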

How the data were processed

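The deposited table held raw read counts per gene, whole numbers that the authors did not rescale. Per the labels' protocols, libraries were made with a stranded poly(A) kit. Per the submitters' processing notes, the tools named are cutadapt 4.1, STAR 2.7.10a, FastQC 0.11.9 and DESeq2 1.34.0, with GRCm38 (mm10) as the build. The counting tool, its strand setting, its treatment of reads that match 2 places and the annotation are not given in the sources used here. Column names were joined to samples by the labels, with 0 columns left over. Gene positions and sequences were taken from GENCODE M21 (GRCm38), and copies were found by aligning member transcripts to other transcripts.

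Each tissue and sex was fitted alone in R 4.3.3 with edgeR 4.0.16: low genes were removed by the default filter (at least 10 counts in enough libraries and 15 in all), library sizes were adjusted by TMM, 1 coefficient was fitted per group of treatment and time, and quasi-likelihood tests over all genes of the tissue were adjusted by Benjamini-Hochberg, calls at 0.05. Of the 37 members 22 passed the filter in at least 1 female and 24 in at least 1 male tissue, and tRNA genes with few counts passed in some tissues only. Replicates were separate animals. Replicate numbers were not treated as pairs. The sex difference was fitted over both sexes in 16 tissues. The scripts were tested on simulated data. Alternatives were other scalings, other filters, DESeq2 1.42.0, a replicate block, both sexes together, a cohort term and each library left out, and, chosen after seeing the data, leaving out 7 libraries high in mitochondrial rRNA.

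The members and lists were chosen with earlier results of these data known. All 37 members could be named; a tRNA was named if among the 6 of highest mean share or called in a described contrast, as was a panel of 8 nuclear genes (Polrmt, Tfam, Twnk, Lrpprc, Slirp, Mtpap, Ppargc1a and Esrra), and marker lists are given by their sum with the leading gene.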

Additional observations from a re-analysis of the deposited data

Results flagged for a closer look

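Of 70 arms of 6 libraries (5 in 1 of them), 3 held a library whose summed member share stood far from the others of its tissue, sex and treatment. Chance picks about 1 in 20 such groups. The share was 21.8% in the liver of a Deficient male at ZT05 (replicate 3, animal 53), where 23.1% of the member counts were rRNA. It was 5.53% in the pituitary of a Control female at ZT17 (replicate 1), and 2.03% in the testis of a Control male at ZT17 (replicate 1). In male brown adipose tissue 12 members had a lower response at ZT17 than at ZT05 by the test of that difference. In liver 7 members had a higher response in females than in males by the test of that difference.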

How the results depend on the processing

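Counts are pairs of member and tissue called up and down. With DESeq2 females had 34 response falls and males 47, Control time differences were 25 up and 5 down in females and 24 up and 2 down in males, Deficient ones 10 up and 5 down in females and 3 up and 6 down in males, the interaction gave 2 falls in females and 3 rises and 19 falls in males, and the sex difference 22 up and 1 down. Without a low-count filter the counts were 31 up and 24 down (female response), 5 and 63 (male response), 28 and 4 (Control time, females), 26 and 10 (males), 16 and 8 (Deficient time, females), 16 and 14 (males), 4 and 8 (interaction, females), 9 and 28 (males) and 43 and 4 (sex difference). With the stricter filter they were 0 male response rises and, in females, 2 Control and 4 Deficient time falls and 1 interaction fall. On library totals without TMM there were 13 male response falls, 4 female Control time falls, 5 male Control time rises, 3 male Deficient time falls, 2 male interaction falls and 0 up and 1 down for the sex difference. With TMM over other genes there were 3 female Control time falls.

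With the sum of the members as library size there were 3 male response rises and 6 falls, 10 female Control time rises and 2 falls, 3 male Control time rises, 1 female Deficient time fall, 3 male Deficient time rises and 2 falls, 3 male interaction falls, and 4 up and 2 down for the sex difference. With both sexes together there were 11 female response rises, 0 female Control time falls, 19 male Control time rises and 3 falls, 2 male Deficient time rises and 9 falls, 1 female interaction fall, and 1 male interaction rise and 19 falls. Without libraries high in mitochondrial rRNA there were 4 male Deficient time falls. The cause of each shift was not tested.

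Replicate numbers are not known to mark pairs. In every tissue and sex the lowest correlation of residuals between libraries of 1 number was under 0.1, but a lowest value cannot show that pairing is absent. The mean correlation ran from -0.105 in the female EDL tendon to 0.221 in male gastrocnemius. Libraries of other numbers had means of 0.053 and -0.109 there. With a replicate block the response gave 10 falls and 20 rises in females, and 29 falls and 1 rise in males, the Control time difference 20 rises and 2 falls in females and 9 rises in males, the Deficient one 5 rises and 4 falls in females, the interaction 10 falls in males, and the sex difference 6 up.

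With each library left out in turn the response gave 4 to 13 falls and 11 to 19 rises in females, and 0 to 2 rises with 19 to 29 falls in males. Control time differences gave 0 to 3 falls and 7 to 22 rises in females, 0 to 7 falls and 3 to 17 rises in males, Deficient ones 2 to 7 and 0 to 6 in females and 0 to 5 and 0 to 4 in males, and the interaction 0 to 1 falls in females and 9 to 13 in males. Tissues with a lower median share numbered 5 to 8 in females and 9 to 12 in males.

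Of the 114 called pairs, 112 were called in the same direction with DESeq2, 102 with the block, 66 on library totals and 43 on the member sum. Of 107 within a sex, 46 kept their call whichever library was left out, and 0 turned. The values that turned on the member sum were mt-Co1 (-0.0118) and mt-Nd2 (-0.0377) in female TA, mt-Atp6 (0.0766) and mt-Nd3 (0.0825) in male liver, mt-Co1 (0.0266), mt-Cytb (0.0215), mt-Nd4 (0.0454) and mt-Rnr2 (0.0270) in male soleus, mt-Co2 in the liver sex difference (-0.0141), and in male brown adipose tissue mt-Atp8 with time in Control (-0.22) and mt-Atp6 (0.46), mt-Atp8 (0.93), mt-Co2 (1.29), mt-Co3 (0.66), mt-Nd3 (0.22) and mt-Nd4l (1.47) in the interaction. On library totals mt-Atp8 (0.13) and mt-Nd4l (0.40) turned there. Depth limits the tRNA genes most, with median counts of 91 or less.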
